A study of Mus musculus with 6 samples.

Results

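Gastrocnemius muscle sampled after 24 h without food was compared with the same muscle after 4 h, in mice on each of 3 diets. All 6 pools of the series entered the comparison, 3 at 24 h and 3 at 4 h, chosen by the fasting period in their labels and paired by diet. The mice were male C57BL/6J, put on their diets at 6 weeks of age for 15 weeks. Control mice ate a diet with 10 kcal% fat, and HF mice ate a high-fat diet with 60 kcal% fat. HF+SFC+ALA mice ate that high-fat diet with 0.023% by weight of sodium ferrous citrate (SFC), an iron salt, and 0.2% by weight of 5-aminolevulinic acid phosphate (ALA), the precursor from which heme is built. RNA was pooled within each combination of diet and fasting time, and each pool was 1 array. How many animals went into each pool is not stated, and the age label of 21 months is at odds with the stated feeding scheme. No genetic change or drug other than these diets is given in the labels.

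Skeletal muscle is a large store of protein and glycogen. When food is withdrawn, insulin falls, and muscle turns from glucose to fatty acids and ketone bodies. Lower insulin and insulin-like growth factor signalling lets FoxO transcription factors enter the nucleus, where they switch on ubiquitin ligases and autophagy genes that break protein down. Glucocorticoids and PPAR nuclear receptors act on many of the same genes.

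Signals are linear intensities, and values of 3 pools are given throughout in the order Control, HF and HF+SFC+ALA. A difference is log2 of the 24 h signal minus log2 of the 4 h signal, with the standard error of a limma fit over the 6 pools with diet as a block. A gene passed when its Benjamini-Hochberg adjusted p over 11526 genes was under 0.05. The 8 skeletal myofibre markers, among them Acta1, Ckm, Myh4 and Ttn, were all above the signal filter, and their summed signal ran from 329567 to 383732. Median signals ran from 63.0 to 69.5 over the 6 arrays. The 3' to 5' ratio of the actin control, a measure of RNA integrity, ran from 1.08 to 1.52 and was highest in the HF pool at 4 h. That of the Gapdh control ran from 0.81 to 0.86 and was 0.83 in that pool. In whole muscle, fewer cells of a type and less RNA per cell cannot be told apart.

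Genes that were higher after 24 h included the ubiquitin ligase Fbxo32, the autophagy kinase Ulk1, the thioesterases Acot1 and Acot2 and the growth arrest gene Gadd45a. Genes that were lower included the transferrin receptor Tfrc, the glycogen regulator Ppp1r3c, the growth factor Igf1, the chaperone Hsp90aa1 and the collagen Col1a1. In all, 278 of 11526 genes passed (2.41%), 172 higher at 24 h (1.49%) and 106 lower (0.920%). The size of a change was modest: the median over the 278 genes was 0.54 on the log2 scale, and the median standard error over all genes was 0.12. All 278 had 1 sign in the 3 diets, where 2426 of all genes were higher in every diet (21.0%) and 2114 were lower (18.3%). In 148 of the rises every 24 h pool lay above every 4 h pool, which held for 1220 of all genes (10.6%). Among the falls 86 lay below in the same way, against 963 of all genes (8.36%). The spread in this fit is how far the 3 diets disagree, so passing itself favours 1 sign and pools that do not overlap. The shares of the passing genes are therefore no separate evidence. A 1.5-fold difference or more in every diet was found for 36 genes that were higher (0.312%) and 28 that were lower (0.243%). Arnt, at an adjusted p of 0.0497 in limma, was the last gene to pass, and Ankrd6, at 0.0502, was the first that did not. Leaving out the HF+SFC+ALA pool of 4 h or of 24 h lowered the count to 59, leaving out Control raised it to 455 (4 h pool) or 452 (24 h pool), and 46 genes passed whichever pool was left out. With diet as a block, leaving out either pool of a diet leaves only the pairs of the other diets to inform the fasting term. The omissions of a diet's 4 h and 24 h pools are therefore not separate checks. Of the passing genes, 171 had other probe sets above the filter, 299 in all. Of these, 268 had the sign of the one read and 31 the opposite sign. With 3 pairs an exact paired permutation test cannot go below p = 0.25, and 3 pools against 3 cannot go below 0.1, so single genes rest on the limma fit.

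**Figure D1:**
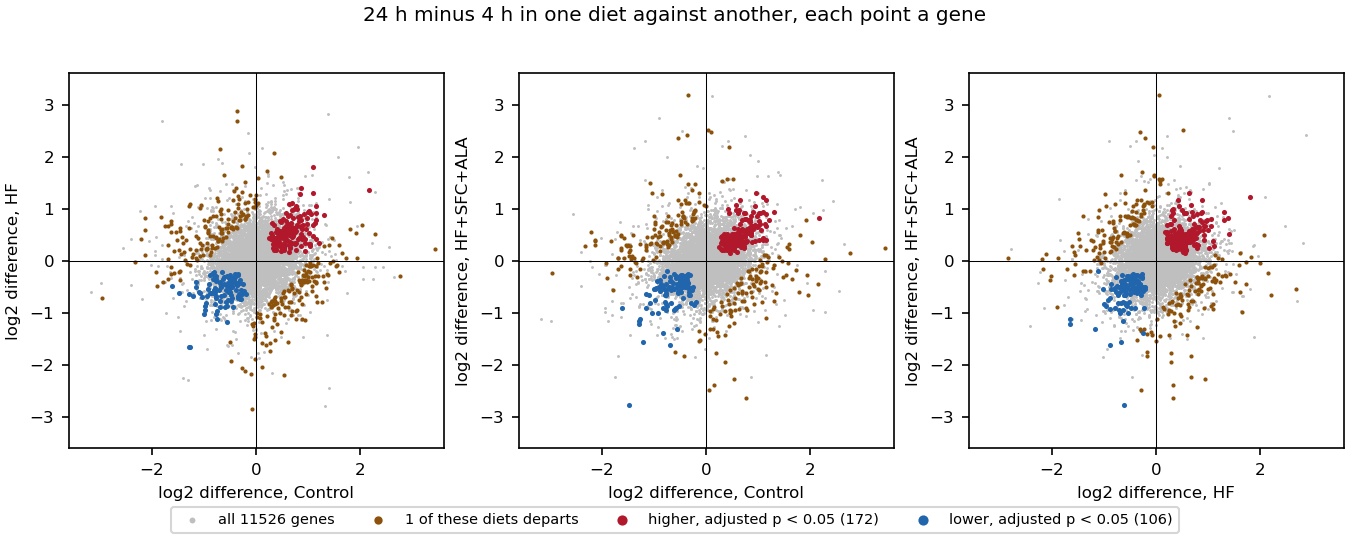
Log2 difference between 24 h and 4 h in one diet against another for all 11526 genes, 1 panel per pair of diets; red points are the 172 genes that passed with a rise, blue points the 106 that passed with a fall, and brown points genes in which 1 of the plotted diets departs from both others. The red points lie to the upper right of 0 and the blue points to the lower left in every panel, and most grey points form a cloud around 0.

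The transcripts that moved most in every diet came from many pathways. Ranked by the difference in their weakest diet, the leading rises were Tnfrsf19, a receptor of the TNF receptor family, the acyl-CoA thioesterases Acot2 and Acot1, Bcl2l11 and the nuclear noncoding RNA Neat1. Tnfrsf19 signals were 280, 163 and 304 at 4 h and 595, 566 and 714 at 24 h, a 2.59-fold rise (1.37 ± 0.16, limma adjusted p = 0.00629). The pools did not overlap, and the lowest 24 h pool was the HF pool. Other probe sets of Tnfrsf19 above the filter gave 1.06 and 0.23, so its size depends on the probe set. Neat1 stood at 4286, 2795 and 3400 against 7618, 6838 and 5895, again without overlap (0.97 ± 0.10, adjusted p = 0.0025). Snhg12, a host of small nucleolar RNAs (0.86 ± 0.12), the histone deacetylase Hdac9 (0.85 ± 0.17), the chromatin remodelling subunit Bcl7a (0.87 ± 0.12) and Gins1, a subunit of the replicative helicase (0.95 ± 0.20), rose as well. At the other end, Hmga2-ps1, annotated as a pseudogene, fell from 1185, 1666 and 1247 to 493, 531 and 579 (-1.34 ± 0.12, adjusted p = 0.00146). Whether its probes also bind the parent gene Hmga2 was not tested. The falls also held Noct, a NADP(H) phosphatase of circadian rhythm, at 2328, 2587 and 2264 against 1355, 1571 and 1172 (-0.82 ± 0.08, adjusted p = 0.0025). Slc30a2, a zinc transporter (-0.72 ± 0.11), Ip6k3, the inositol hexakisphosphate kinase of muscle (-0.73 ± 0.13), Lonrf3 (-0.85 ± 0.15) and the water channel Aqp4 (-1.03 ± 0.13) fell by similar amounts. Other probe sets gave -1.17 and -0.12 for Aqp4 and 0.29 for Bcl7a.

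**Figure D2:**
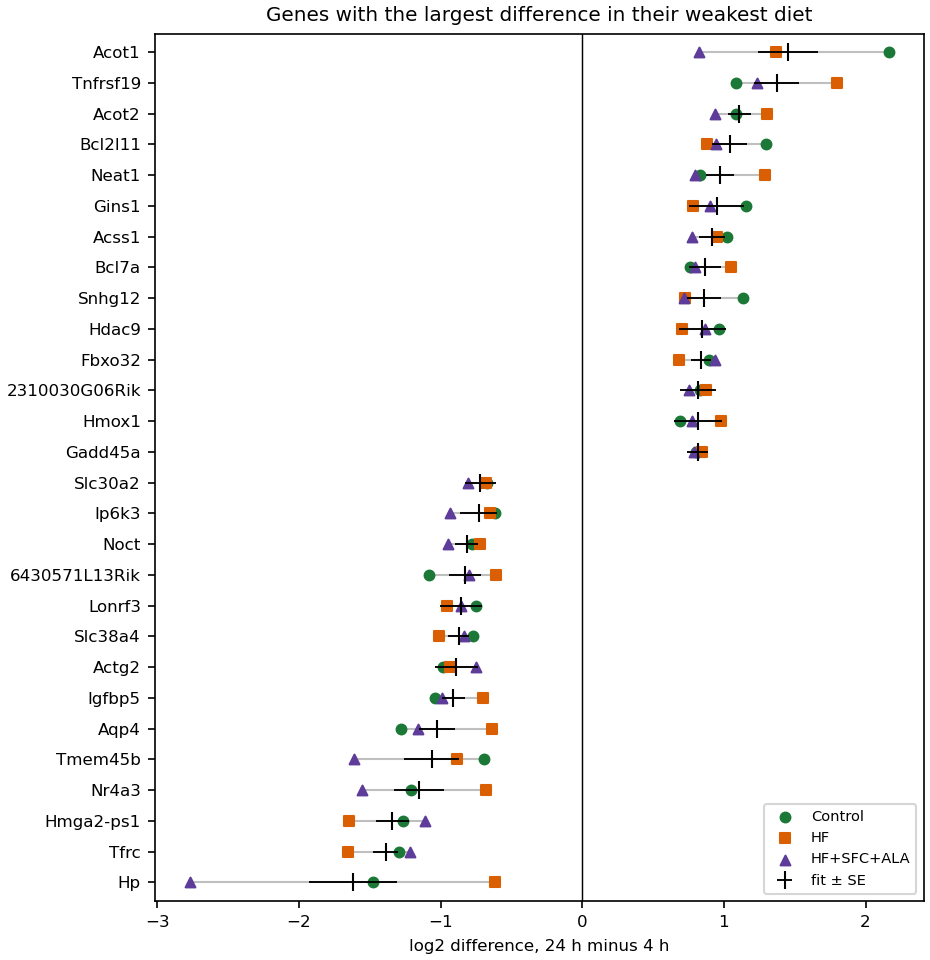
Log2 difference between 24 h and 4 h in each diet (coloured points) and in the limma fit with its standard error (black) for the 14 rises and 14 falls with the largest difference in their weakest diet. Points of the 3 diets lie close together for Gadd45a and furthest apart for Hp, where HF stood at -0.61 and HF+SFC+ALA at -2.77.

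Of 18 measured atrophy ligases and FoxO factors, 5 rose and 0 fell, with a median difference of 0.18 beside 0.01 over all genes. Fbxo32, the ubiquitin ligase atrogin-1, had signals of 13711, 8834 and 9899 at 4 h and 25513, 14183 and 18934 at 24 h, a 1.79-fold rise (0.84 ± 0.07, limma adjusted p = 0.00146). Every 24 h pool lay above every 4 h pool, and in each fasting state the Control pool was highest and the HF pool lowest. Its other probe sets gave 0.96 and 0.31, the second with 0.03 in Control. Gadd45a, a growth arrest gene that FoxO and ATF4 induce in wasting muscle, gave 1812, 941 and 1233 against 3167, 1691 and 2133 (0.81 ± 0.08, adjusted p = 0.00208). Its groups overlapped, since the HF pool at 24 h was below the Control pool at 4 h, but the 3 diets differed by only 0.79 to 0.85. Cblb, a ligase that marks the insulin receptor substrate for breakdown, rose by 0.70 ± 0.10, Fbxo21 by 0.69 ± 0.10 and the transcription factor Foxo3 by 0.39 ± 0.08. Other probe sets gave 0.38 and 0.49 for Cblb, 0.19 for Fbxo21 and 0.36 and 0.15 for Foxo3. In HF+SFC+ALA that of Fbxo21 stood at -0.02. The last of Foxo3 gave 0.42, 0.77 and -0.76, a fall in HF+SFC+ALA. Trim63, the ligase MuRF1 that is commonly read beside Fbxo32, did not pass, at 22109, 19731 and 18585 against 29032, 18795 and 23368 (0.22 ± 0.09, adjusted p = 0.252). Its HF pair showed no increase, at -0.07 against 0.39 and 0.33 in the other diets. Foxo1 was higher in Control alone, at 0.17, -0.35 and -0.52, and did not pass (adjusted p = 0.375).

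Autophagy genes had 3 rises and 0 falls among 25, and 12 were higher in every diet (median 0.05). Ulk1, the kinase that starts autophagy, went from 3453, 2154 and 2835 to 6345, 3277 and 3667 (0.62 ± 0.09, adjusted p = 0.0136), with the HF pool at 24 h below the Control pool at 4 h. Gabarapl1, which coats the autophagosome membrane, rose from 1614, 1125 and 1883 to 2611, 2427 and 2289 (0.70 ± 0.13, adjusted p = 0.0333). These pools did not overlap. The other Gabarapl1 probe set gave 0.93, 0.83 and 0.03, with hardly any rise in HF+SFC+ALA. Wipi1, which binds the phosphoinositides of that membrane, passed at 0.36 ± 0.07, but of its 5 other probe sets 3 were higher at 24 h (0.43, 0.28 and 0.13) and 2 lower (-0.12 and -0.31). Mtmr14, a phosphatase of the same phosphoinositides, rose from 743, 619 and 805 to 1062, 1078 and 992 (0.54 ± 0.11, adjusted p = 0.0456). Map1lc3b (0.24 ± 0.07, adjusted p = 0.12) and the mitophagy receptor Bnip3 (0.23 ± 0.08, adjusted p = 0.15) were higher in each diet without passing. Of 37 proteasome subunits only Psma5 passed (0.34 ± 0.07), while 18 were higher in every diet and the median was 0.09.

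**Figure D3:**
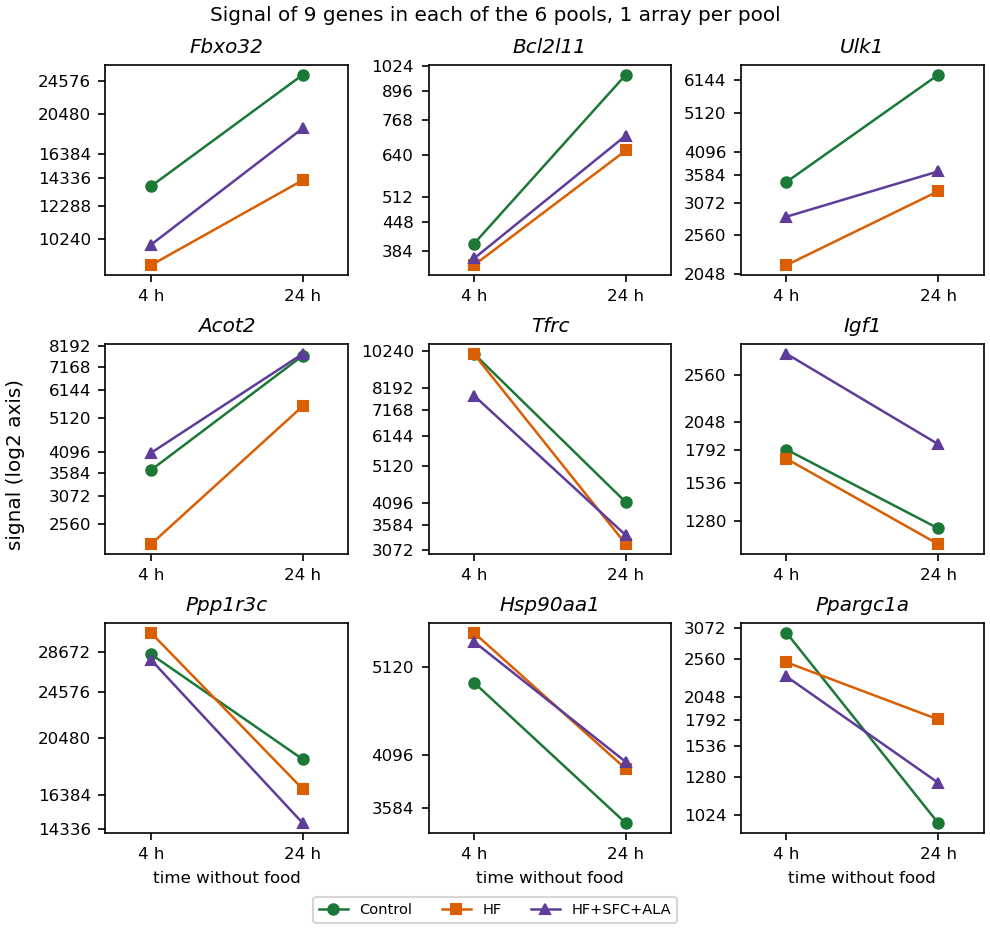
Signal of 9 genes in each pool on a log2 axis, with a line joining the 4 h and 24 h pools of a diet (1 array per point, no error bar). All lines of Fbxo32, Bcl2l11, Ulk1 and Acot2 go up and all lines of Tfrc, Igf1, Ppp1r3c, Hsp90aa1 and Ppargc1a go down.

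Promoter sequences were read for the letters GTAAACA, the core that FoxO and other forkhead proteins bind, on either strand of the 250 bases before each RefSeq start (GRCm38.p6). Of 141 genes with a rise and a listed promoter, 10 held them (7.09%): Bcl2l11, Eola1, Gtf2e1, Hbp1, Kctd20, Mtmr14, Pim1, Rsad2, Tmem140 and Txnip. Among 77 falls 2 held them (2.60%), beside 258 of 9337 genes kept (2.76%) and 956 of 27025 genes in the whole table (3.54%). The cyclic AMP response element TGACGTCA was found in 2.84% of rises, 3.90% of falls and 3.0% of genes kept. The E-box CACGTG, which clock and Myc family factors bind, was found in 12.1%, 13.0% and 10.1%. These shares are descriptions with no test. The windows printed here lie outside their gene's annotated span and are shown in the direction of the gene, with the letters searched, or their reverse complement TGTTTAC, in capitals. They show where the letters fall in 4 genes that rose and in Trim63, which did not pass.
Bcl2l11, chr2:128125788-128125857, plus strand: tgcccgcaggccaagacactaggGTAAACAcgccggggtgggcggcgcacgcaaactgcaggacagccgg
Txnip, chr3:96557796-96557882, plus strand: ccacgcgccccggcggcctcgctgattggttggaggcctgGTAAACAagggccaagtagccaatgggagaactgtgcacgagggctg
Tmem140, chr6:34862990-34863076, plus strand: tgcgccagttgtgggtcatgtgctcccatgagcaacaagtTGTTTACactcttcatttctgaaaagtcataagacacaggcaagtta
Rsad2, chr12:26456618-26456702, minus strand: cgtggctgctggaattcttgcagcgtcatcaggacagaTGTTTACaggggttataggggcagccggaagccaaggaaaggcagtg
Trim63, chr4:134314886-134314972, plus strand: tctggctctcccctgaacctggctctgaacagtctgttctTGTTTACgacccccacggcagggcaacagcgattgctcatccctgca
The letters begin 227 bases before the listed start in Bcl2l11, 121 in Txnip, 116 in Tmem140, 212 in Rsad2 and 194 in Trim63.

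These promoter holders have varied roles. Bcl2l11, the BH3-only protein BIM that triggers apoptosis, went from 398, 355 and 368 to 979, 654 and 708 (2.06-fold, 1.04 ± 0.12, limma adjusted p = 0.00669), and the pools did not overlap. Its other probe sets gave 0.53 and 0.47, the second with 0.07 in Control. Kctd20, a positive regulator of Akt signalling, rose from 459, 374 and 522 to 912, 717 and 828 (0.87 ± 0.11, adjusted p = 0.00867), also without overlap, and its other probe sets gave 0.31 and 0.58. Tmem140 rose from 3623, 1906 and 2908 to 5378, 3228 and 3628 (0.55 ± 0.09, adjusted p = 0.0183), with the HF pool at 24 h below the Control pool at 4 h. Rsad2, the antiviral enzyme viperin, rose by 0.70 ± 0.10 although Ifi27l2a, another interferon-stimulated gene, fell by 0.66 (SE 0.14), and the list of 18 had a median of 0.06. Other Rsad2 probe sets gave 0.18 and 0.22, the first with -0.38 in Control. Gtf2e1, a subunit of general transcription factor IIE (0.54 ± 0.08), the cell cycle repressor Hbp1 (0.37 ± 0.07) and the kinase Pim1 (0.48 ± 0.10) also passed. Other probe sets of Hbp1 gave 0.36 and -0.03.

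Of 33 measured genes of insulin, IGF and mTOR signalling, 2 rose and 3 fell, and the median was 0.04. Igf1, the growth factor, fell from 1797, 1720 and 2837 to 1235, 1145 and 1844 (-0.58 ± 0.08, limma adjusted p = 0.00878). The falls were alike in the 3 diets, at -0.54, -0.59 and -0.62, but groups overlapped because the HF+SFC+ALA pools were the highest at both times. Other Igf1 probe sets gave -0.48, -0.44 and -0.14, and in the HF pair these read 0.10, 0.00 and 0.01. Irs1, the adaptor below the insulin and IGF-1 receptors, dropped from 6774, 6656 and 6464 to 5309, 4981 and 4818 without overlap (-0.40 ± 0.06, adjusted p = 0.0167). Igfbp5, an IGF-binding protein, fell from 9516, 10302 and 10200 to 4635, 6341 and 5135 (1.88-fold, -0.91 ± 0.08, adjusted p = 0.00146), and its other probe set gave -2.07. Eif4ebp1, which blocks cap-dependent translation when mTOR is off, rose from 4734, 3558 and 3463 to 10931, 4502 and 5959 (0.78 ± 0.13, adjusted p = 0.0213). The HF pool at 24 h stayed below the Control pool at 4 h, and the HF rise of 0.34 was the smallest of the 3. Ddit4l, an inhibitor of mTOR, passed at 0.31 ± 0.06. Irs2 (0.32 ± 0.11, adjusted p = 0.163) was higher in every diet without passing. In the translation machinery, Eif4a1 (0.32 ± 0.07) and Eif3a (0.34 ± 0.07, with 0.28, 0.22 and 0.08 from its other probe sets) rose among 43 initiation factors, and 0 of 45 cytosolic ribosomal proteins passed in limma, with 0 at an unadjusted p under 0.05.

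Of 9 acyl-CoA thioesterases 2 rose, Acot2 and Acot1. Of the others 2 were lower in every diet, and the list median was 0.08. Acot2, a mitochondrial thioesterase that frees fatty acid from its coenzyme, stood at 3642, 2241 and 4077 against 7711, 5540 and 7807 (1.11 ± 0.08, limma adjusted p = 0.00106). Acot1, its cytosolic relative, stood at 246, 242 and 516 against 1102, 626 and 915 (1.45 ± 0.21, adjusted p = 0.0114). In both genes the 24 h pools were all above the 4 h pools. Since Acot1 and Acot2 are close in sequence, probe sets may share signal. Acss1, which activates acetate in mitochondria, went from 845, 591 and 854 to 1713, 1144 and 1461 (0.92 ± 0.09, adjusted p = 0.0025), but its other probe set gave -0.67. Pnpla2, the first lipase of triglyceride breakdown (0.49 ± 0.08), Mlycd, which removes the malonyl-CoA brake on fatty acid entry (0.49 ± 0.08), and the lipoprotein lipase inhibitor Angptl4 (0.66 ± 0.13) rose too. Pnpla2 and Mlycd were among the 46 genes that passed whichever pool was left out. Of 21 genes of beta-oxidation Mlycd was the only 1 to pass, yet 20 were higher on average, with medians of 0.21, 0.34 and 0.05 in the 3 diets. Cpt2 (0.33 ± 0.08, adjusted p = 0.068) and Eci2 (0.29 ± 0.07, adjusted p = 0.0653) came nearest. In fatty acid and triglyceride synthesis, the acyltransferases Gpam (0.48 ± 0.07) and Dgat2 (0.56 ± 0.08), which esterify fatty acids, rose, whereas the desaturase Scd1 fell. The other Dgat2 probe set gave 0.29, and that of Gpam gave -0.01, 1.17 and 0.28, without a rise in Control. Scd1 signals of 4706, 6231 and 5426 were followed by 2641, 5205 and 2081, a fall of 0.83 (SE 0.16, adjusted p = 0.039) that was 0.26 in the HF pair. The other Scd1 probe set fell alike in the 3 diets, at -0.61, -0.59 and -0.54. Fdft1, squalene synthase, rose by 0.58 ± 0.07 as the only 1 of 15 cholesterol synthesis genes to pass.

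Carbohydrate genes that passed act on glycogen and on the control points of glycolysis. Ppp1r3c, the glycogen-targeting subunit PTG of protein phosphatase 1, fell from 28456, 30949 and 27837 to 18854, 16777 and 14682 (1.74-fold, -0.80 ± 0.08, limma adjusted p = 0.00239), and its other probe set gave -1.31. Stbd1, which anchors glycogen to membranes for its breakdown, fell from 1792, 1548 and 1661 to 1041, 1078 and 964 (-0.70 ± 0.09, adjusted p = 0.00867). Neither gene's groups overlapped, and they were the only 2 of 15 glycogen genes to pass (median 0.05). Pfkfb3, which makes the fructose 2,6-bisphosphate that speeds glycolysis, rose from 5914, 3529 and 4042 to 9104, 4335 and 7999 (0.63 ± 0.11, adjusted p = 0.0243). Fbp2, which opposes that step in muscle, rose from 3348, 4060 and 4562 to 6711, 5058 and 6010 (0.57 ± 0.12, adjusted p = 0.0456). The Control pair led for Fbp2, at 1.0, and the HF+SFC+ALA pair led for Pfkfb3, at 0.98. The other Pfkfb3 probe set gave 0.94, 0.82 and 0.79, so which diet led depends on the probe set. Arrdc3 (0.67 ± 0.12) and Txnip (0.31 ± 0.07), alpha-arrestins that pull transporters and receptors from the membrane, rose as 2 of 5 measured. The other Txnip probe set gave -0.01, 0.72 and 0.36. Pdk4, the kinase that shuts pyruvate dehydrogenase in fasting, was already at 41206, 33192 and 42574 at 4 h and reached 46358, 46480 and 45155. This difference did not pass (0.25 ± 0.08, adjusted p = 0.165), and the phosphatase subunit Pdp2 stood at 0.79 ± 0.21 (adjusted p = 0.0943). Whether signals as bright as those of Pdk4 still follow the transcript was not tested.

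Of 18 amino acid transporters 2 fell and 0 rose, and of 16 amino acid and polyamine enzymes 2 fell, Smox and Cdo1, and 0 rose. Slc38a4, a sodium-coupled transporter of neutral amino acids, fell from 5158, 4918 and 4945 to 3018, 2441 and 2770 (-0.87 ± 0.07, limma adjusted p = 0.00146). Its close relative Slc38a2, or SNAT2, fell from 11820, 11970 and 10596 to 6838, 6788 and 7318 (-0.71 ± 0.07, adjusted p = 0.00282). Groups of both genes were far apart, but the other probe sets gave -0.24 for Slc38a4 and 0.03 and 0.09 for Slc38a2. The remaining 16 of 18 transporters did not pass, and Slc7a2, which carries arginine and lysine, was higher mainly in Control, at 1.52, 0.02 and 0.63 (0.72 ± 0.22, adjusted p = 0.126). Smox, which oxidises spermine, fell from 13180, 9745 and 9450 to 9339, 6844 and 7317 (-0.46 ± 0.06, adjusted p = 0.0105), and its other probe set gave 0.17. Cdo1, cysteine dioxygenase, fell from 171, 685 and 233 to 115, 303 and 94.0 (-1.02 ± 0.19, adjusted p = 0.0328). In the breakdown of branched-chain amino acids 0 of 21 genes passed in limma (3 with an unadjusted p under 0.05), while 19 were higher on average and 9 in every diet. Ppm1k, the phosphatase that activates their dehydrogenase, was the largest of those named, at 0.55 ± 0.15 (adjusted p = 0.1).

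Of 17 genes of iron uptake, storage and export 1 fell, Tfrc, and 0 rose (median 0.003). Of 18 genes of heme synthesis and breakdown 1 rose, Hmox1, and 2 fell, Hp and Cd163 (median -0.02). Over all genes 2.41% passed. Tfrc, the transferrin receptor through which cells take up iron, had signals of 10076, 10052 and 7826 at 4 h and 4112, 3192 and 3368 at 24 h. This was the smallest adjusted p of the named genes (2.62-fold lower, -1.39 ± 0.09, limma adjusted p = 0.000651), and its other probe sets gave -1.36 and -1.49. The fall was present in the HF+SFC+ALA pair, fed the iron salt, at -1.22, beside -1.29 in Control and -1.66 in HF. Hmox1, the oxygenase that opens heme and frees its iron, rose from 209, 130 and 130 to 338, 255 and 223 without overlap (0.82 ± 0.17, adjusted p = 0.0458). The iron exporter Slc40a1 stood at 0.39 ± 0.11 (adjusted p = 0.0968) and the importer Slc11a2 at -0.40 ± 0.13 (adjusted p = 0.158), both with 1 sign in all diets. Hp, the hemoglobin scavenger haptoglobin, fell from 317, 2940 and 783 to 114, 1921 and 115 (-1.62 ± 0.31, adjusted p = 0.0337), and Cd163, the macrophage receptor for the complex that haptoglobin forms, fell from 333, 461 and 396 to 245, 249 and 241 (-0.68 ± 0.15, adjusted p = 0.0491). Hp levels differed more between diets than between fasting times, so its groups overlapped, and those of Cd163 did not. Beside Hp and Cdo1, which fat tissue also expresses, 4 of 10 adipocyte markers, Adipoq, Lep, Retn and Cidec, were lower in each diet without passing, with adjusted p from 0.0566 to 0.0893. Fabp4 (0.21), Adig (0.27) and Lipe (0.51) were higher in each diet, also without passing, and the summed adipocyte signal went from 76458 to 84268 in Control, 91677 to 96385 in HF and 83115 to 82860 in HF+SFC+ALA. Adipoq signals were 901, 4637 and 1941 against 577, 4280 and 796. Of the 10 markers 0 passed in limma, 6 had an unadjusted p under 0.05 and the median was -0.06, and their part in the falls of Hp and Cdo1 was not tested.

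Of 25 immediate early genes 4 rose and 2 fell, with a median of 0.14. Jun went from 4053, 2831 and 2952 to 6772, 4380 and 5156 (0.72 ± 0.07, limma adjusted p = 0.00236), and its pools did not overlap. The Krüppel-like factors Klf10 (0.62 ± 0.09), Klf2 (0.57 ± 0.11) and Klf4 (0.44 ± 0.09) rose with it. Nr4a3, an orphan nuclear receptor that contraction and adrenergic signals induce, fell from 368, 527 and 584 to 159, 328 and 199 (-1.15 ± 0.18, adjusted p = 0.0136), whereas its relative Nr4a1 stood at 0.14 ± 0.07 (adjusted p = 0.309). Dusp1, a phosphatase that ends MAP kinase signals, fell by 0.47 (SE 0.07) with differences of -0.46, -0.49 and -0.46. Ppargc1a, the coactivator PGC-1 alpha of mitochondrial genes, fell from 2991, 2515 and 2314 to 978, 1798 and 1239 (-1.0 ± 0.17, adjusted p = 0.0212). Its 24 h pools were all below the 4 h pools, and 4 other probe sets gave -0.82 to -0.98. Rxrg, a retinoid X receptor of muscle, fell from 1991, 1951 and 1791 to 1212, 1317 and 1266 (-0.59 ± 0.08, adjusted p = 0.00978). In the same list of 23, Nmrk2, a kinase of NAD synthesis, gave 6678, 3919 and 4678 against 741, 2597 and 2149, and with -3.17, -0.59 and -1.12 in the diets it did not pass (-1.63 ± 0.37, adjusted p = 0.0581). Of 18 clock genes only Nfil3, a repressor of the clock's output, passed (-0.56 ± 0.12), and Dbp was lower in Control alone, at -0.88, 0.14 and 0.11.

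Among 22 genes of p53 signalling, arrest and apoptosis, Bcl2l11, Gadd45a, Ccng2 (0.51 ± 0.08), Cdkn1b (0.41 ± 0.07) and Gadd45b (0.52 ± 0.10) rose. Ccng2, cyclin G2, and Cdkn1b, the inhibitor p27, slow the cell cycle. Cdkn1a, the inhibitor p21, instead fell from 1304, 1113 and 959 to 1069, 667 and 545 (-0.61 ± 0.12, limma adjusted p = 0.0331), with -0.37 from its other probe set. Other probe sets of Gadd45b gave 0.22 and 0.50, and that of Cdkn1b gave 0.68, -0.06 and 0.22 in the diets. Medians of this list were 0.33, 0.01 and 0.05 in the diets. Heat shock chaperones had 3 falls and 0 rises among 25: Hsp90aa1, Hspa8 and Dnaja1, which work together in folding. Hsp90aa1 went from 4927, 5592 and 5467 to 3447, 3957 and 4027 without overlap (-0.49 ± 0.06, adjusted p = 0.00978), and its other probe sets gave -0.61 and -0.57. Hspa8 dropped from 31133, 28633 and 28046 to 23926, 23708 and 22540 (-0.32 ± 0.06) and Dnaja1 by 0.38 (SE 0.08, with -0.31 and -0.21 from its other probe sets). The list as a whole differed by diet, at -0.17, 0.13 and -0.15. Ppp1r15a, which restarts translation after stress, rose by 0.75 ± 0.13 while the other 16 genes of the ATF4 response did not pass. Catalase, encoded by Cat, rose by 0.54 ± 0.07 as 1 of 22 antioxidant genes.

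Of 38 collagen and matrix genes 4 fell and 0 rose, 17 were lower in every diet, and the median was -0.23. Col1a1, the main chain of type I collagen, went from 968, 1883 and 1289 to 689, 1108 and 854 (-0.62 ± 0.09, limma adjusted p = 0.0129). Serpinh1, the chaperone that collagen needs to fold, went from 1831, 2161 and 2196 to 822, 1629 and 1181 (-0.82 ± 0.13, adjusted p = 0.0145), and Col6a2 and Col5a2 fell by 0.57 (SE 0.10) and 0.48 (SE 0.10). Other probe sets gave -0.32 for Col1a1, with -0.05 in HF, and -0.29 for Col5a2, with 0.18 in HF. By diet the list medians were -0.43, -0.03 and -0.33, so the HF pair contributed least. Smooth muscle genes Actg2 (-0.89 ± 0.15), Acta2 (-0.47 ± 0.07) and Tagln (-0.42 ± 0.08) fell as 3 of 10. The other Acta2 probe set gave -1.04, 0.09 and -0.56 in the diets. In limma 0 of 8 fibroblast markers and 0 of 8 tendon markers passed (2 and 3 at an unadjusted p under 0.05), with medians of -0.02 and -0.05, and the summed fibroblast signal lay between 50614 and 57119 at 4 h and between 50807 and 58562 at 24 h. Btnl9, an endothelial gene, rose from 225, 256 and 361 to 497, 534 and 576 (0.96 ± 0.14), alone among 14 endothelial markers. Ighm, the immunoglobulin heavy chain, fell by 0.57 (SE 0.10) and was the only lymphocyte marker above the filter. The part of such cells in the matrix result was not tested.

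Few genes of the fibre's energy and contractile machinery or its myokines passed. Over all genes the share was also low, at 278 of 11526 (2.41%). With that share, 0 passing genes in lists of this size says little about them. None of 34 complex I subunits, 27 subunits of complexes II to V, 17 citric acid cycle genes, 14 genes of mitochondrial fusion and fission, 16 slow fibre and 17 fast fibre contractile genes or 17 myokines passed in limma. At an unadjusted p under 0.05 there were 0, 0, 1, 4, 2, 1 and 7 genes in these 7 lists in the order given, beside 2039 of all 11526 genes. Of 76 mitochondrial ribosomal proteins 1 passed (Mrpl41, 0.42 ± 0.09). Of 18 genes of calcium handling, Jph2 (-0.32 ± 0.06) and Sypl2 (-0.62 ± 0.09), which hold the membranes of the triad, fell, and other probe sets gave -0.11 for Jph2 and 0.28 for Sypl2. Myf6, the myogenic factor MRF4, rose by 0.33 ± 0.07 and the stress-responsive Ankrd1 by 0.51 ± 0.11.

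**Figure D4:**
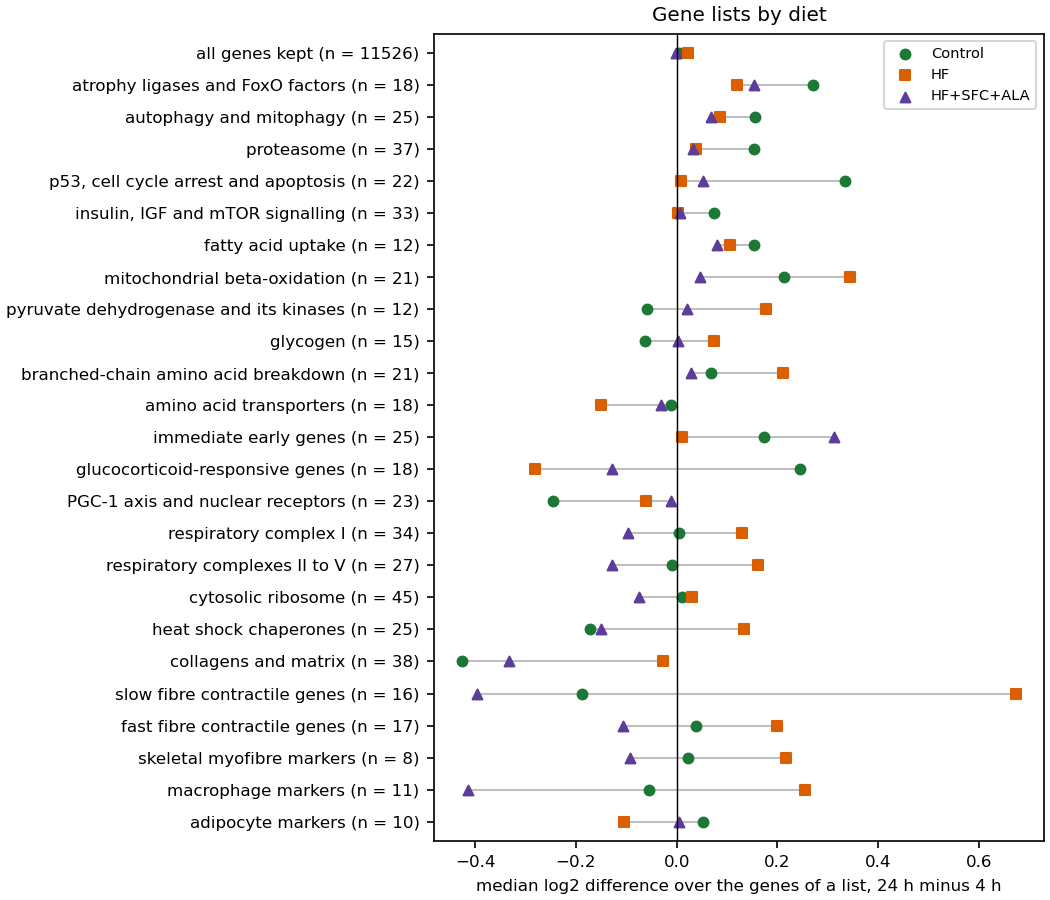
Median log2 difference between 24 h and 4 h over the measured genes of each list, by diet, with the number of genes in brackets and all genes in the first row. The 3 diets lie on the same side of 0 for atrophy, autophagy and collagen genes, whereas HF alone is on the right for slow fibre genes.

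Differences were widest in the Control pair. Their SD over all genes was 0.41 there, 0.38 for HF and 0.35 for HF+SFC+ALA. The 172 rises had medians of 0.60, 0.52 and 0.44, and the 106 falls -0.58, -0.54 and -0.52. For 89 genes the Control pair had the largest rise, for 53 the HF pair and for 30 the HF+SFC+ALA pair, which had the smallest rise for 91. These shares describe 3 pairs of single arrays, and whether a diet changes the size of the response could not be tested. Across genes, the differences of Control correlated with those of HF at r = 0.16 (Spearman's rho 0.21) and with those of HF+SFC+ALA at 0.24 (0.31), and those of HF and HF+SFC+ALA at 0.18 (0.21). These are descriptions over 11526 genes of the same arrays, which are not independent replicates.

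Lists in which a diet stood apart were led by slow fibre contractile genes. Of 16 members, 15 were higher at 24 h in HF, 2 in Control and 2 in HF+SFC+ALA, with medians of -0.19, 0.67 and -0.40. Myh7, the slow myosin heavy chain, had signals of 8784, 6099 and 9992 at 4 h and 7813, 10109 and 6716 at 24 h. The HF pool was the lowest at 4 h and the highest at 24 h. The slow troponins Tnni1 (-0.05, 0.83 and -0.62) and Tnnt1 (0.06, 0.76 and -0.63) followed Myh7, and so did the calcium pump Atp2a2 (-0.21, 0.64 and -0.39). Sln, sarcolipin, which uncouples that pump, met the rule for a departing gene, at 732, 307 and 428 against 301, 651 and 242. Casq2, the calsequestrin of slow fibres, was the member that was not higher in HF (-0.15, -0.15 and -0.54). Ankrd2 and Csrp3, stretch-sensing proteins, were higher in both high-fat diets, at 1.43 and 0.57 and at 1.2 and 0.56, and lower in Control. After quantile normalization the slow fibre medians were -0.19, 0.67 and -0.36. Fast fibre genes were higher in HF too (16 of 17, median 0.20) and lower in HF+SFC+ALA (1 of 17 higher, -0.11), as were complex I subunits (33 and 2 of 34, medians 0.13 and -0.10). After quantile normalization these medians were 0.02 and -0.01 for fast fibre genes (10 and 4 of 17 higher) and 0.07 and -0.05 for complex I (29 and 7 of 34). Bright genes in general lay on the same sides: of 503 genes with a mean signal above 10000, 332 were higher in HF and 144 in HF+SFC+ALA, and after quantile normalization 248 and 222. The actin 3' to 5' ratio was 1.52 in the HF pool at 4 h against 1.15 at 24 h, and the Gapdh ratio was 0.83 against 0.81. The part of RNA integrity in the slow fibre pattern was not tested.

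Glucocorticoid-responsive genes were higher in Control and not in the high-fat diets. A positive difference was found for 14 of 18 members in the Control pair, for 4 in the HF pair and for 8 in the HF+SFC+ALA pair, with medians of 0.25, -0.28 and -0.13. Fkbp5, a chaperone of the glucocorticoid receptor, gave 1278, 1618 and 1479 against 1678, 1134 and 1166. Glul, glutamine synthetase, gave 9031, 9773 and 8659 against 14965, 7421 and 7468, and Ddit4, an mTOR inhibitor, 2104, 1667 and 1113 against 4030, 1268 and 1224. In each of the 3 genes the Control pool at 24 h was the highest of all 6. The other Glul probe set gave 0.80, 0.03 and 0.11, without a fall in the high-fat diets, and that of Fkbp5 gave 0.24, -0.81 and -0.21. The members that passed did so by falling in all diets: Sgk1 (-0.46 ± 0.07), a kinase of ion transport, Zbtb16 (-0.40 ± 0.08, with -0.92 and -0.51 from its other probe sets) and Dusp1. Averaging the probe sets of a gene gave medians of 0.24, -0.18 and 0.02. Macrophage markers were higher in HF (10 of 11, median 0.26) and lower in HF+SFC+ALA (-0.41), with 0 rises and 1 fall, Cd163, past the threshold. Their summed signal went from 5194 to 6087 in HF, from 5681 to 4387 in HF+SFC+ALA and from 3919 to 3516 in Control.

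**Figure D5:**
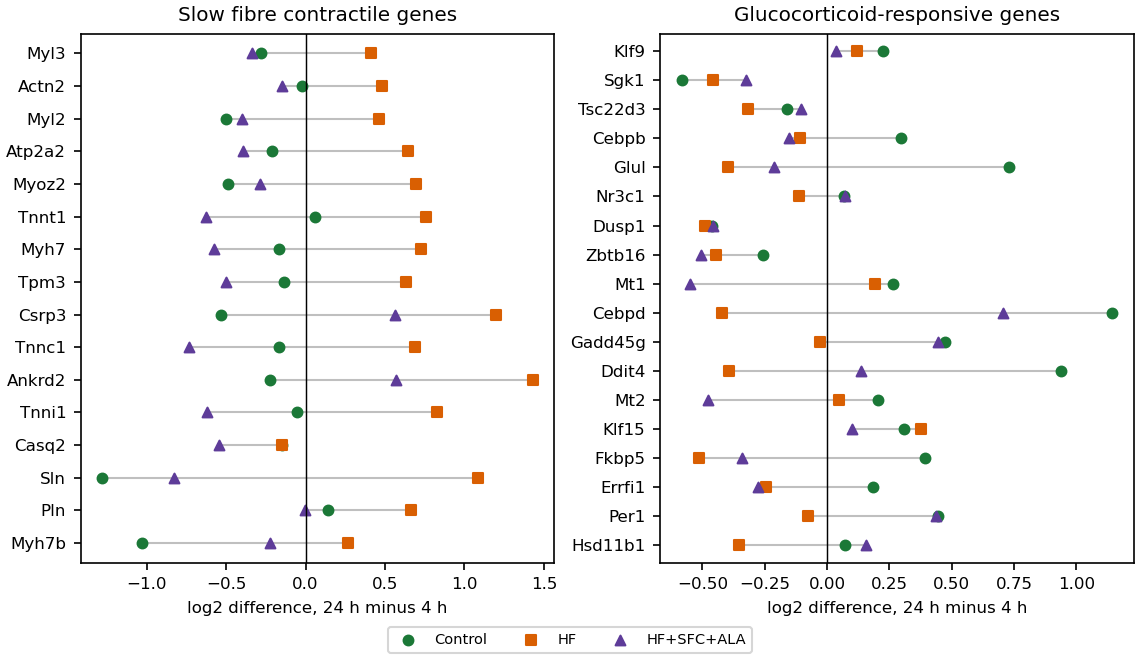
Log2 difference between 24 h and 4 h in each diet for the 16 slow fibre contractile genes (left) and the 18 glucocorticoid-responsive genes (right), ordered by mean signal from the top. HF is the rightmost point in all slow fibre rows but Casq2, and Control is on the right of 0 in 14 rows of the glucocorticoid panel.

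Single genes were taken to depart in a diet when its difference lay at least 1 log2 unit from both others, which lay within 0.5 of each other. This gave 396 genes, 0 of which passed the limma test. The rule asks for disagreement between diets, which is the spread in that fit, so such genes could hardly pass. Control stood above the others in 67 genes (0.581%) and below in 84 (0.729%), HF above in 68 (0.590%) and below in 76 (0.659%), and HF+SFC+ALA above in 52 (0.451%) and below in 49 (0.425%). Gper1, with a gap of 1.0, was just inside the rule and Hoxa7, with 0.996, just outside. The departing genes were dim, with a median signal of 86.2 against 544 over all genes, and with 1 array per combination the diet by fasting interaction had no residual degrees of freedom and could not be tested. Most of those furthest out were near the floor of 26.4 in 1 pool. Clstn2 had 26.5 in the Control pool at 4 h and 128 at 24 h, Ino80b 26.8 in the HF+SFC+ALA pool at 4 h, and Fam24b 27.9 in the HF pool at 24 h. Zdhhc12, a palmitoyltransferase, had 40.7 in the Control pool at 4 h where the other 5 pools lay between 178 and 276.

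The brightest departing genes were picked after their values were seen. Sesn1, a stress-induced inhibitor of mTOR, gave 1359, 1876 and 1585 at 4 h and 4080, 1611 and 1851 at 24 h. The Control pool at 24 h stood far above the other 5, with differences of 1.59, -0.22 and 0.22. Other Sesn1 probe sets gave 1.22, 0.31 and 0.33, and 1.28, 0.51 and 0.37. Socs2, which dampens growth hormone signalling, was higher in Control and lower in the high-fat diets, at 0.76, -0.96 and -0.61. Other Socs2 probe sets gave 0.40, -0.29 and -0.30, then 0.96, -0.79 and -0.44, then 1.16, 0.43 and 0.12. The last was higher in every diet. Hes1, a repressor below Notch, was lower in Control alone, at -1.24, 0.08 and 0.01. In HF the departures above were Grb14, an inhibitor of the insulin receptor, at 1267, 1444 and 1966 against 907, 2282 and 1407, Nceh1, a hydrolase of cholesterol esters (-0.03, 1.19 and 0.06), and Khdrbs3. Cebpd, a transcription factor that glucocorticoids induce, departed below, at 1.14, -0.42 and 0.70. In HF+SFC+ALA, Pdp2, the phosphatase that reactivates pyruvate dehydrogenase, differed by 0.10 against 1.15 and 1.12, having been highest of the 4 h pools in that diet (208, 160 and 320). Serf1 (-0.67, -0.38 and 0.68) and Prex2 (-0.48, -0.34 and 0.77) departed above. Other Serf1 probe sets gave 0.07, -0.61 and 0.41, then 0.00, -0.17 and -0.36, then -0.07, -0.24 and 0.35, and none met the rule.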

How the data were processed

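The values are intensities from Affymetrix 3' arrays, 1 array for each of 6 RNA pools. Per the submitters' processing notes the deposited intensities are MAS5 signals, with no version or settings on record in those notes. In the files the 2% trimmed mean is nearly the same on every array, so that each array was scaled to a common level.

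The array has 45101 probe sets, 64 of them controls. The platform annotation gives 34945 of the rest a single symbol, 932 more than 1 and 9160 no symbol. Symbols of 34741 were updated through gene IDs, and probe sets with several or no symbols were not used for genes. A floor of 26.4, the 30th percentile of the signals, replaced lower values before logs were taken, each gene was read from its brightest probe set, and 11526 of 18193 genes whose mean log2 signal was above the median over probe sets (5.88) were kept. Of these, 92 have a pool at the floor.

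The fit was limma 3.58.1 (R 4.3.3), with fasting time and diet as terms and a trended eBayes prior (2 residual and 7.27 prior degrees of freedom), p-values adjusted by Benjamini-Hochberg over the 11526 genes. It was tested on simulated data. Diet is the block, since each diet gives 1 pool at each time. Nothing in the labels says that a pool stands for separate cohorts. With 1 pool per combination, the residual behind the p-values is how far the fasting differences of the 3 diets disagree. The prior, drawn from all genes, adds to it, and the spread between animals does not enter. Tables and figures were made with matplotlib 3.10.9, numpy 2.4.6 and pandas 2.3.3 under Python 3.11.15.

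Named genes were the 14 rises and 14 falls with the largest difference in their weakest diet, the 5 genes furthest above and below for each departing diet, up to 6 passing members of each of 45 pathway and 13 marker lists (the smallest p where fewer than 3 passed), and a fixed set of fasting genes. Bright departing genes, members of the slow fibre, glucocorticoid, adipocyte and macrophage lists and genes with printed promoters were added after values were seen. The members, lists and rules were chosen with earlier results of these data known. Promoters on chromosome 18 were not used here. Alternatives were quantile normalization, other filters, a pseudocount, averaging probe sets, eBayes without the trend, no diet block and leaving out each pool.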

Additional observations from a re-analysis of the deposited data

Results flagged for a closer look

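Some results were singled out because both pairs of the other diets differed in one direction and the remaining pair in the opposite one. With 1 array per combination of diet and fasting time these differences were not tested, and the genes are dim. Values are log2 differences between 24 h and 4 h in Control, HF and HF+SFC+ALA.

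Where Control stood apart, Glb1l2 gave 1.15, -0.67 and -1.10, but its other probe set above the filter, at -0.25, -0.09 and -0.43, did not show this. Where HF stood above the others, the values were -1.75, 0.66 and -2.24 for Hcrt, -1.69, 0.67 and -1.83 for Mrnip, -0.62, 1.65 and -0.99 for Dock1, and -1.06, 1.08 and -0.93 for Gmppb. Where HF stood below, they were 0.89, -1.11 and 0.97 for Kcna2, 0.93, -1.13 and 0.84 for Taf1d, and 1.17, -0.80 and 1.09 for Man2b2. Other probe sets gave 0.70, 0.09 and 0.45 for Kcna2, and 0.48, -0.38 and -0.16 and -0.05, 0.84 and 0.39 for Taf1d.

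Where HF+SFC+ALA stood above, Plek, Egr2 and Fgr gave -0.85, -0.98 and 1.28, -1.04, -0.59 and 1.3, and -1.0, -1.41 and 0.87 in that order. Their other probe sets did not show this: Plek gave -0.05, -0.28 and -0.56, Egr2 -0.97, -0.10 and 0.02, and Fgr 0.46, -1.25 and -0.02. Plek and Fgr are expressed in blood cells of the myeloid line, and Egr2 is an immediate early gene. Where it stood below, Gm30214 gave 1.96, 2.19 and -0.65, and Mfap4, a matrix protein, 1.79, 1.61 and -0.59. The median over the 16 slow fibre contractile genes was 0.67 in HF, against -0.19 in Control and -0.40 in HF+SFC+ALA.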

How the results depend on the processing

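The 278 genes past the adjusted p became 240 after quantile normalization, 369 with a filter at the 65th percentile and 274 with a pseudocount instead of a floor. They became 0 with no filter (2026 at an unadjusted p under 0.05), 0 with eBayes without the trend (1639), 18 with the mean over probe sets of a gene (1589) and 60 without the replicate block, with diet left out (1503). Leaving out 1 pool gave 59 to 455. Every passing gene named in the text kept its sign where it was recomputed, and of the other passing genes Abtb2 turned from -0.45 to 0.05 with probe sets averaged. Averaging probe sets also turned the sign of 19 of 171 list medians by diet, among them ketone body and acetate use in HF (0.29 to -0.18) and glucocorticoid-responsive genes in HF+SFC+ALA (-0.13 to 0.02), and quantile normalization turned 7 of 174. Quantile normalization shared 230 of the 278 calls, the fit without the block 60, and averaging probe sets 17.

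The 64 genes at least 1.5-fold apart in every diet became 127 with no filter and, on 2 diets when a pool was left out, 182 to 239. The 396 departing genes became 965 with no filter, 48 at the 65th percentile, 210 with a pseudocount and 247 with probe sets averaged. The departing genes thus depend on the treatment of dim signals. With 1 array per combination and pools of unstated size, the spread between animals cannot be seen.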
